A study of Mus musculus with 2 samples.

Results

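The nuclear genome of the mouse encodes most subunits of the mitochondrial respiratory chain, and the m6A positions listed in the transcripts of these genes were compared between mouse embryonic stem cells (mESCs) with and without Mettl3. The genes were chosen by symbol: nuclear protein-coding genes whose symbol starts with Nduf, Sdh, Uqcr or Atp5, the gene Cyc1, and the Cox4 to Cox8 genes with a letter after the digit, leaving out the assembly factors that share these prefixes. This rule gave 86 genes, and 84 of them had a listed position, of 10086 coding genes with a listed position among 21938 annotated. Cox8b and Cox8c had no position in the lists used here. Usmg5, Atpif1 and Cycs carry other symbols in the annotation and were not members.

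The samples were 2 libraries of poly(A) RNA from mouse 129 embryonic stem cells sequenced directly on a nanopore device, 1 of WT cells and 1 of Mettl3 KO cells. The KO line had been made by CRISPR–Cas9 and lacks exons 5 to 7 of Mettl3 on both alleles, where it carries drug resistance cassettes (puromycin and hygromycin). The WT cells carry no such cassettes. Each library was searched for m6A with 7 tools (xPore, Tombo, Nanom6A, MINES, m6Anet, Epinano and ELIGOS), and 3 further tools (Nanocompore, DiffErr and DRUMMER) compared both libraries and gave 1 list each. The 7 WT lists and the 3 comparison lists are called the WT side below, and the 7 KO lists the KO side. xPore also works by comparing libraries, and how its WT and KO lists were divided is not given in the sources used here.

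The respiratory chain passes electrons from NADH and succinate to oxygen through complexes I to IV, and ATP synthase, complex V, uses the proton gradient that this builds. A few of its subunits are made in the mitochondrion, and the others are translated in the cytosol from nuclear genes and imported. m6A is a methyl mark on adenosines of mRNA, deposited mainly by the METTL3 and METTL14 complex at RRACH sequences (R is A or G, H is A, C or T) and known to be dense near stop codons and in long exons. The mRNAs of housekeeping genes such as these are commonly abundant and short.

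The lists hold positions without a score, read depth or methylation level, so an absent position was not shown to be unmethylated or even covered by reads. With 1 library per condition there was no replicate check and no test between conditions. Intervals below are 95% intervals that cover counting error only, and positions of 1 transcript share their reads. At Mettl3, the deleted exons 5 to 7 held 2 positions on the WT side and 0 on the KO side, a small count for a check of the labels. Exons 1 to 7 together held 9 and 0, and exons 8 to 11 held 4 and 5. Of 10 stem cell markers, 9 had a listed position in each library, against 1 (WT side) and 2 (KO side) of 6 fibroblast markers and 1 and 0 of 4 endoderm markers. The endoderm marker was Sox17, with 12 positions on the WT side and 0 on the KO side. The fibroblast markers were Thy1, with 3 and 1, and Col1a1, with 0 and 3. Whether the 2 libraries differed in cell composition was not tested.

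The following sequences are shown because many tools named them and the results for their genes refer back to them. They are RNA-sense sequences of 21 bases written as DNA, 5′ to 3′, from the GRCm38 genome, with the RRACH 5-mer around the listed A in capitals. The name gives the distance of that A along the transcript, counted from where the stop codon begins, and negative distances lie upstream. Each sequence of the first set was listed by 6 or more of the 10 tools on the WT side, and all but that of Sdha were in a comparison list.
Cox7a2l, 18 nt: cctgtggaGGACTggttcact
Uqcrfs1, 11 nt: agacacgtGGACTcagggcct
Atp5o, 6 nt: gctctgagAGACTgtcacctg
Cox7a2l, 313 nt: gggcctcgGGACTcaggcggt
Cox6a1, 35 nt: caacaaagGGACCacagcact
Cox6a1, 54 nt: ctggttttGGACCcttactct
Sdha, 676 nt: atcagtctGGACTgtataaga
Cox4i1, -26 nt: gccaagtgGGACTatgacaag
These windows lie at chr17:83502577-83502597, chr13:30540712-30540732, chr16:91925264-91925284, chr17:83502282-83502302, chr5:115345800-115345820, chr5:115345781-115345801 and chr13:74322403-74322423 on the minus strand, and at chr8:120674069-120674089 on the plus strand. The Cox4i1 site was in the coding sequence of the last exon, and the others were in the 3′ UTR part of the last exon.

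A second set is shown because 4 or more single-library tools listed each position in both libraries.
Sdhb, -634 nt: ataagtgcGGACCtatggtgt
Ndufb2, -2 nt: gatgacgaGGACTgacactgt
The listed A of Sdhb is at position 140971143 of chromosome 4 on the plus strand in exon 3 of 8. This sequence crosses an exon junction and is given as spliced. The Ndufb2 window is chr6:39598326-39598346 on the plus strand, in exon 3 of 4, and its A lay just before the stop codon.

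The 84 genes held 817 positions in the 17 lists, all of them at RRACH on the transcript. The WT side listed 766 positions in 82 genes and the KO side 718 positions in 84 genes. The lists of both sides shared 667 positions, so that 99 were listed on the WT side alone and 51 on the KO side alone. In these genes each comparison-list position was also in a WT list. By gene, 39 members had more positions on the WT side, 28 had equal numbers and 17 had more on the KO side. The libraries were therefore close in number of listed positions for these genes.

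**Figure D1:**
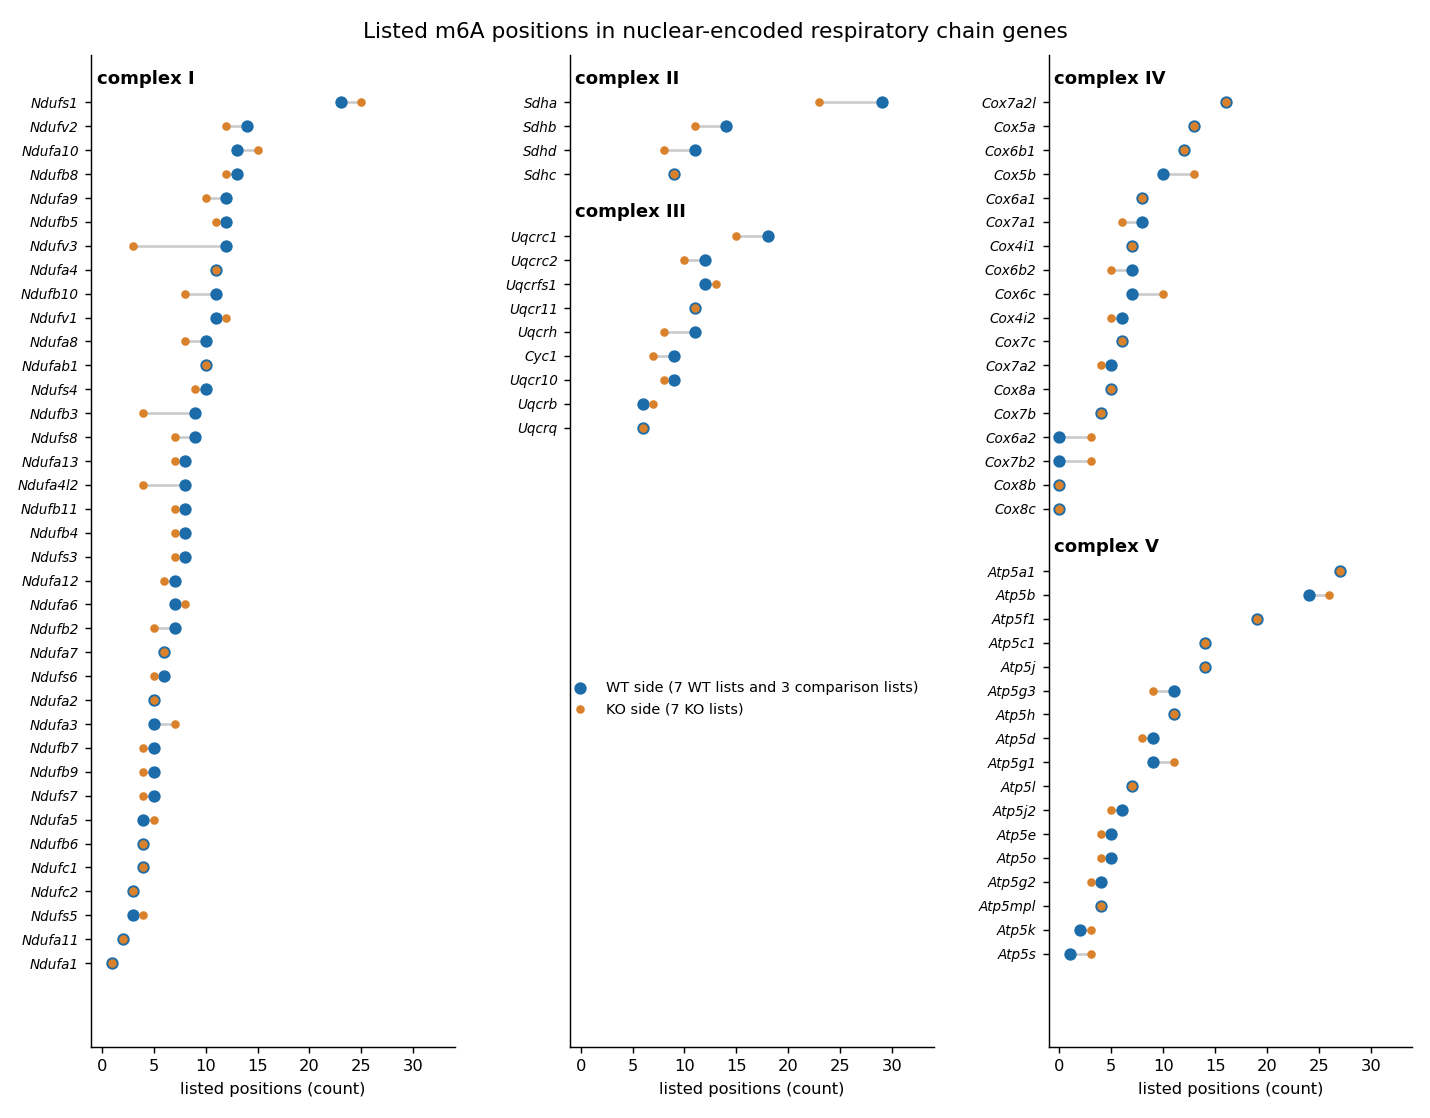
Listed positions (count) of 85 of the 86 genes, grouped by complex; the large blue point is the WT side and the small orange point the KO side, and a grey line joins them. Most pairs lie close together, while Ndufv3 has 12 positions on the WT side and 3 on the KO side, and Cox6a2 and Cox7b2 have 3 on the KO side and 0 on the WT side.

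These genes differ in size from most others. Their transcripts had a median length of 787 nt, against 2843 nt in other coding genes, and a median of 4 exons against 9. Each gene offered a median of 16 RRACH positions, against 44 in other coding genes. Counts are therefore also given per RRACH position in the exons of the listed transcripts, of which the members had 1532 and the other coding genes 517256.

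Of the RRACH positions in members, 50.0% (47.5 to 52.5) were on the WT side and 46.9% (44.4 to 49.4) on the KO side. In other coding genes these shares were 24.3% and 20.2%. Most of this gap came from a single tool: Nanom6A, which scores each read with a trained classifier, listed 39.7% (37.3 to 42.2) of the members' RRACH positions in WT and 35.4% (33.1 to 37.9) in KO, against 6.11% and 5.04% in other coding genes. Tombo, which compares the current with a canonical model, listed 19.5% against 14.3% in WT. In WT m6Anet listed 8.03% against 4.48% and xPore 2.94% (2.20 to 3.91) against 1.02%. MINES (2.55% against 2.56%), ELIGOS (1.24% against 1.14%) and Epinano (8.36% against 8.45%) listed nearly equal shares in both gene sets in WT. In KO Epinano listed 3.92% (3.05 to 5.01) against 2.85%, MINES 2.28% (1.65 to 3.16) against 1.79% and ELIGOS 0.326% (0.139 to 0.762) against 0.288%. Without the Nanom6A lists, an alternative added after the data were seen, the WT side held 31.1% of the members' RRACH positions and 22.0% of those in other coding genes.

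**Figure D2:**
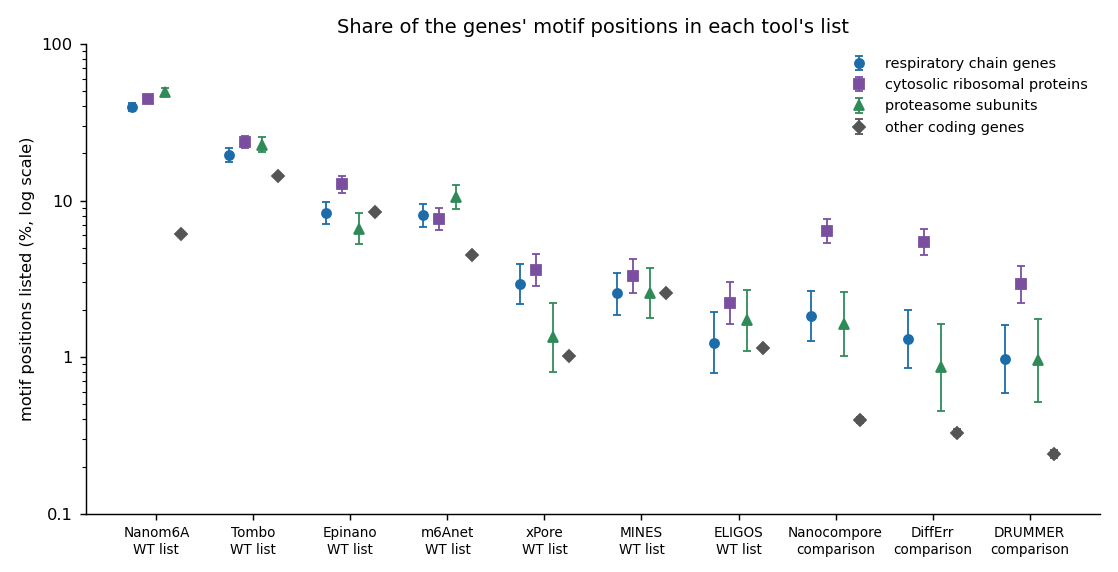
Percent of RRACH motif positions found in each tool's WT list or comparison list (log axis), for respiratory chain genes, cytosolic ribosomal proteins, proteasome subunits and all other coding genes; bars are 95% Wilson intervals. Nanom6A has 39.7% in respiratory chain genes and 6.11% in other coding genes, the comparison tools also have higher shares in respiratory chain genes (Nanocompore 1.83% and 0.397%), and MINES and ELIGOS have nearly equal shares in these 2 sets.

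Other housekeeping families also had high Nanom6A shares. Nanom6A listed 44.6% of RRACH positions in WT for 84 cytosolic ribosomal protein genes and 49.6% for 37 proteasome subunit genes with a listed position. The near equality of Epinano and ELIGOS with other coding genes did not extend to both families. Epinano listed 12.7% (11.2 to 14.3) and 6.60% (5.25 to 8.27) in WT, against 8.45% in other coding genes. ELIGOS listed 2.23% (1.64 to 3.03) and 1.72% (1.09 to 2.70), against 1.14%. For the comparison lists the families were further apart, with 10.1% (8.74 to 11.6) in ribosomal proteins, 1.91% (1.24 to 2.93) in proteasome subunits and 2.55% (1.87 to 3.46) in respiratory chain genes. Other coding genes had 0.596% of their RRACH positions in a comparison list. Read depth is not in the files, so its part in these differences was not tested.

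By gene, Nanom6A listed over 50 percent of the RRACH positions in 38 of the 84 members and none in WT in 7. Over all coding genes with a listed position these shares were 5.91% and 58.9%, against which the members had more genes over 50 percent and fewer with none. The 7 were Uqcrc2, Ndufa4l2, Cox4i2, Atp5g2, Atp5s, Cox6a2 and Cox7b2, and Nanom6A had none in KO for them either. Uqcrc2, a core protein of complex III, nevertheless had 12 positions on the WT side and 10 on the KO side from other tools. Atp5a1, the alpha subunit of ATP synthase, was near the other end, with 27 of its 31 RRACH positions in the Nanom6A WT list and 27 in the KO list.

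The share of WT-side positions that a KO list held again was 87.1% (84.5 to 89.3; 667 of 766) in members, while over all coding genes it was 59.0%. Each single-library tool gave the same order. Tombo listed 250 of its 299 WT positions again in KO (83.6%, 79.0 to 87.4), against 59.9% over all coding genes. Nanom6A repeated 522 of 608 (85.9%, 82.9 to 88.4), against 64.9%. MINES, which builds on Tombo, repeated 27 of 39 (69.2%, 53.6 to 81.4), against 40.3%.

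The lower repeat shares came from tools whose KO lists were short beside their WT lists. m6Anet, a neural network over the reads of a site, repeated 63 of 123 positions (51.2%, 42.5 to 59.9), against 34.4% over all coding genes. Epinano, which reads base-calling errors, repeated 39 of 128 (30.5%, 23.2 to 38.9), against 16.5%. ELIGOS, also based on errors, repeated 5 of 19 (26.3%, 11.8 to 48.8), against 11.3%, a value just under the lower end of the interval in members. Without the Nanom6A lists the share over all tools was 73.9% (69.8 to 77.7) in members and 54.0% in other coding genes.

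**Figure D3:**
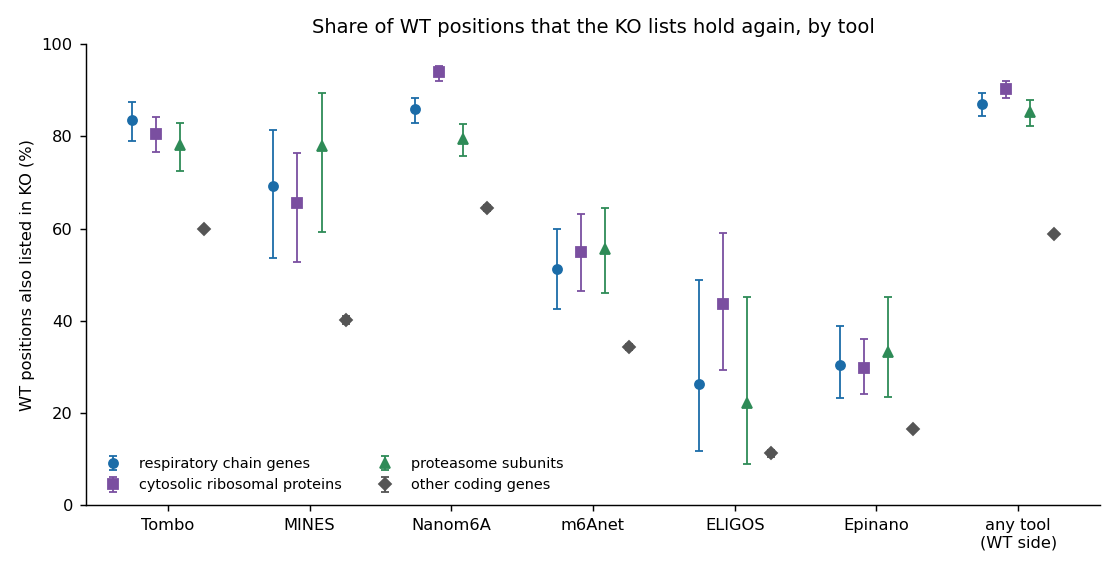
Percent of a tool's WT positions that its KO list also holds, with 95% Wilson intervals, for 4 gene sets; the last group joins all tools and takes the WT side against the KO side. Respiratory chain genes lie near ribosomal proteins and proteasome subunits, and above other coding genes for each tool, although the ELIGOS interval is wide.

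The ratio of KO to WT positions in members was 0.990 for Tombo, 0.897 for MINES and 0.893 for Nanom6A. It was 0.650 for m6Anet, 0.469 for Epinano and 0.263 for ELIGOS. These ratios describe 1 library each and carry no interval, since both lists of a tool share positions. m6Anet listed 60 positions in WT alone and 17 in KO alone, Epinano 89 and 21, and ELIGOS 14 and 0, while Tombo had 49 and 46, MINES 12 and 8, and Nanom6A 86 and 21. In other coding genes the ratios were 0.904 for Tombo, 0.701 for MINES, 0.827 for Nanom6A, 0.580 for m6Anet, 0.337 for Epinano and 0.253 for ELIGOS. For xPore, members had 45 positions in WT and 39 in KO with 32 shared, so that 71.1% of the WT list returned, against 24.3% in other coding genes.

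The lists of Nanocompore, DiffErr and DRUMMER name positions whose signal or errors differed between WT and KO. They held 39 positions in 24 members, 28.6% (20.0 to 39.0) of the 84 listed genes, against 15.3% of all coding genes with a listed position. Of the WT-side positions, 5.09% (3.75 to 6.88) were in a comparison list, against 2.46% over all coding genes. All 3 tools shared 6 of the 39 positions, DiffErr and DRUMMER shared 15, and Nanocompore alone listed 19.

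Of these 39 positions, 36 were also in a KO list of some tool (92.3%, 79.7 to 97.3), against 76.1% over all coding genes. The 3 that were in no KO list were Cox7a2l at 18 nt, Ndufa8 at 103 nt and Cox6a1 at -124 nt from the stop codon. Nanom6A had 37 of the 39 in its WT list and 32 in its KO list. Tombo had 23 and 18. By contrast, m6Anet had 21 in WT and 7 in KO, Epinano 13 and 2, and ELIGOS 5 and 0, so these tools dropped most of the positions in KO that the comparison tools listed.

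Comparison positions of members were in the WT lists less often than those of other coding genes for each tool except Nanom6A, which listed 94.9% of them against 88.9%. m6Anet listed 53.8% of them in WT, against 81.6% of the 3085 comparison positions in other coding genes. The shares were 59.0% against 77.3% for Tombo, 33.3% against 58.3% for Epinano, 17.9% against 49.6% for xPore, 12.8% against 48.5% for ELIGOS and 7.69% against 20.6% for MINES. These shares rest on 39 member positions and were not tested. Over all WT-side positions, 43 of 766 (5.61%, 4.19 to 7.48) were listed by 4 or more of the 10 tools, and over all coding genes the share was 5.56%. A single tool listed 417 of the 766 member positions, and 334 of those were also on the KO side.

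**Figure D4:**
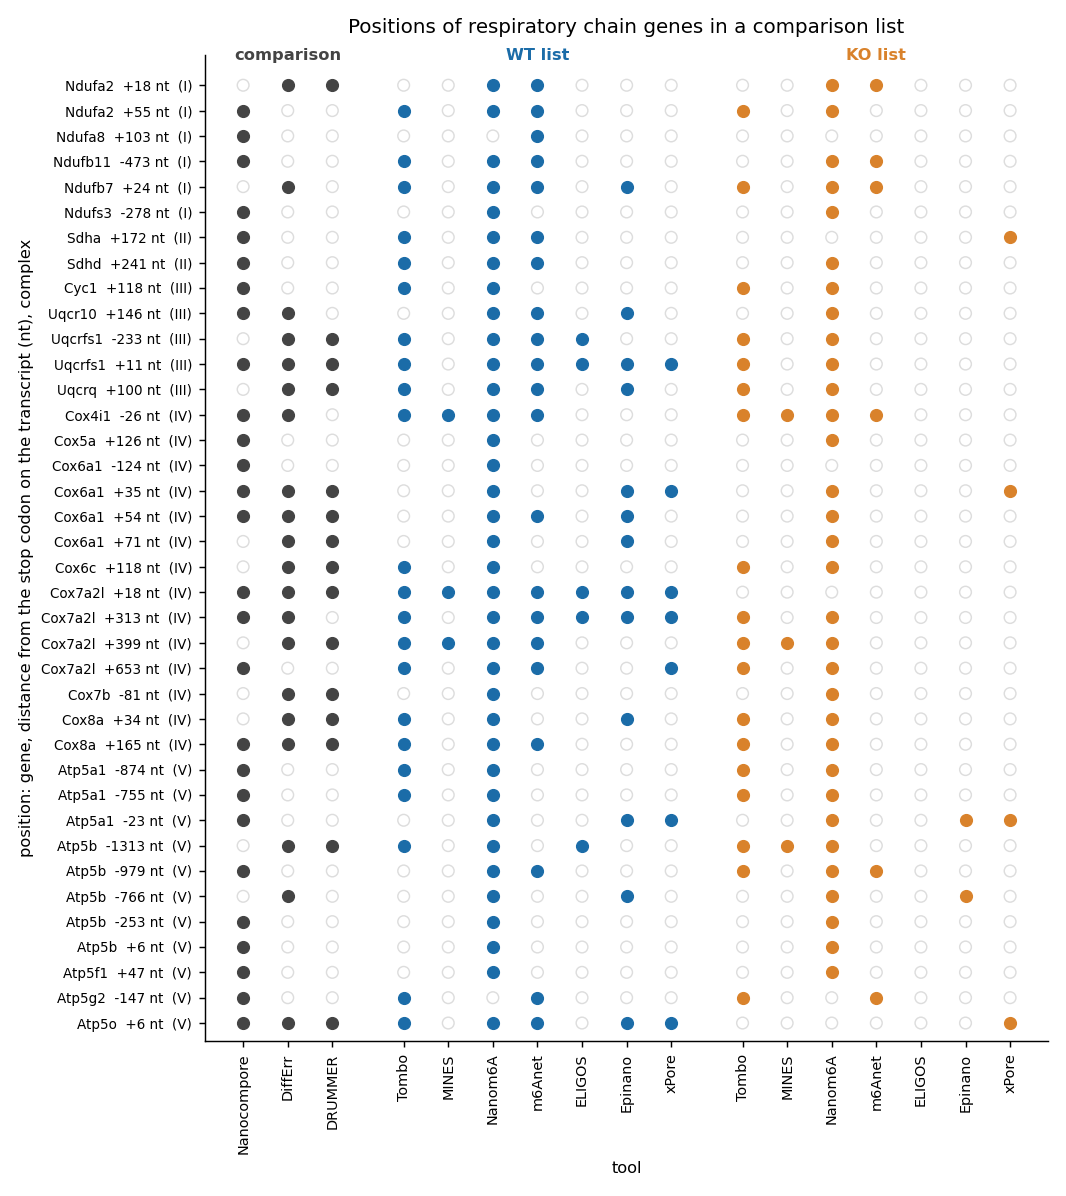
Of the 39 positions of respiratory chain genes in a comparison list, 38 are shown, named by gene, distance from the stop codon (nt) and complex; a filled circle marks a list that holds the position, in grey for the comparison tools, blue for WT lists and orange for KO lists. Nanom6A and Tombo circles recur in KO, while the Cox7a2l position at 18 nt has all 10 circles on the WT side and none in KO.

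Genes were given to complexes by symbol prefix alone, not by where the protein sits. Complex I, the NADH dehydrogenase, had the most genes by this rule, 38, and the most positions, with 323 on the WT side and 290 on the KO side. These counts include Ndufa4 (11 and 11 positions) and its relative Ndufa4l2 (8 and 4), which were placed here by symbol. Complex I had 7 positions in the comparison lists, in 6 genes. That was 0.974% (0.472 to 2.0) of its RRACH positions, against 0.602% over all coding genes, a value inside that interval. Ndufs1, a core subunit which carries iron-sulphur clusters of the electron path, had 23 positions on the WT side and 25 on the KO side with 22 shared. Ndufa10, an accessory subunit, had 13 and 15.

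The complex I genes in a comparison list included Ndufa2 with 2 positions and Ndufa8, Ndufb7, Ndufb11 and Ndufs3 with 1 each. Ndufb7, an accessory subunit of the membrane arm, had the position with most support, a GGACC at 24 nt after the start of the stop codon, which Tombo, Nanom6A, m6Anet, Epinano and DiffErr listed. Tombo, Nanom6A and m6Anet listed it in KO as well. The other comparison positions of these genes were listed by Nanocompore alone among the 3 comparison tools, except that of Ndufa2 at 18 nt, which DiffErr and DRUMMER listed. None of the complex I positions was in all 3 comparison lists.

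Complex II, the succinate dehydrogenase, has 4 genes, and 81.0% (69.6 to 88.8) of its 63 WT-side positions were on the KO side. Sdha, the flavoprotein that oxidises succinate, had more WT-side positions than any other member, 29, with 23 of them also on the KO side. Its 6 positions without a KO list included GGACT at 676 nt, listed by Tombo, Nanom6A, m6Anet, ELIGOS, Epinano and xPore in WT, and GGACT at 791 nt, listed by Tombo, Nanom6A and m6Anet. Neither was in a comparison list. Its single comparison position, an AGACT at 172 nt listed by Nanocompore, was in 3 WT lists and in the xPore list of KO. Sdhd, a membrane anchor of the complex, also had 1 comparison position, at 241 nt. The Sdhb position at -634 nt, in the iron-sulphur subunit, was listed by Tombo, MINES, Nanom6A and m6Anet in both libraries.

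Complex III, the cytochrome bc1 complex, had 9 genes with 94 WT-side and 85 KO-side positions, and 5 comparison positions in 4 genes. That was 3.38% (1.45 to 7.66) of its RRACH positions, against 0.602% over all coding genes. Of all coding genes with a listed position, 15.3% were in a comparison list. Uqcrfs1, the Rieske iron-sulphur protein, held 2 of the 5 positions. Its GGACT at 11 nt was listed by 9 tools on the WT side, all but MINES, and by Tombo and Nanom6A in KO. Its GGACC at -233 nt was listed by DiffErr and DRUMMER and by 4 WT lists, and again by Tombo and Nanom6A in KO. Uqcrq had a GGACT at 100 nt, listed by 6 tools on the WT side. Cyc1, the cytochrome c1 subunit, and Uqcr10 had 1 comparison position each. Uqcrc1, a core protein and the largest contributor of the complex with 18 WT-side and 15 KO-side positions, had none.

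Complex IV, cytochrome c oxidase, had the highest share of RRACH positions in the comparison lists, 6.01% (3.61 to 9.83; 14 positions in 7 genes), although its interval overlapped those of complexes II, III and V. Cox7a2l, a protein related to a complex IV subunit that joins complexes III and IV into supercomplexes, held 4. Its GGACT at 18 nt was the only member position that all 10 tools listed on the WT side, and no tool listed it in KO. Of 61 such positions in other coding genes, 53 were also in a KO list. The GGACT of the same 3′ UTR at 313 nt was listed by 8 tools and the GGACA at 399 nt by 6, and Tombo and Nanom6A kept both in KO. In total Cox7a2l had 16 positions on each side, 15 of them shared.

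Cox6a1, the common form of a small subunit, also held 4 comparison positions. Of these, 3 were GGACC sequences at 35, 54 and 71 nt after the start of the stop codon, in the 3′ UTR. DiffErr and DRUMMER listed all 3, Nanocompore the first 2, and Nanom6A and Epinano all 3 in WT. In KO, Nanom6A kept all 3 and Epinano none. The 2 comparison positions of Cox8a, at 34 and 165 nt, were kept in KO by Tombo and Nanom6A. Cox4i1, the common form of subunit 4, had the GGACT at -26 nt that Tombo, MINES, Nanom6A and m6Anet listed in both libraries and that Nanocompore and DiffErr also listed as different. Cox5a, Cox6c and Cox7b had 1 comparison position each.

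Complex V, ATP synthase, had the highest repeat share, with 94.8% (90.4 to 97.2) of its 172 WT-side positions on the KO side. Complex I had 83.6% (79.2 to 87.2). These intervals treat positions as independent, while a few genes, such as Atp5a1 and Atp5b, gave many of the complex V positions and repeated all of them. The difference between the complexes was not tested. Atp5b, the beta subunit, had 24 positions on the WT side, all 24 of them also on the KO side, which had 26. It had 5 comparison positions, more than any other member, and none was in all 3 comparison lists. Atp5a1, the alpha subunit, had 27 positions, the same 27 on both sides, and 3 comparison positions from Nanocompore. Its GGACA at 192 nt was named in both libraries by all single-library tools except ELIGOS, a number that no other member position reached. Atp5f1, the b subunit of the stator, had 19 on both sides and 1 comparison position, and Atp5c1, the gamma subunit, and Atp5j, the coupling factor F6, had 14 on each side and none.

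Atp5o, the OSCP subunit at the top of the stator, had few positions, 5 and 4, but a well-supported one. Its AGACT at 6 nt was listed by Tombo, Nanom6A, m6Anet, Epinano and xPore in WT and by all 3 comparison tools. In KO it was in the xPore list only. The c subunit of the rotor is made from 3 genes, and the gene Atp5g1 had 9 and 11 positions, Atp5g2 had 4 and 3, and Atp5g3 had 11 and 9 (WT side and KO side). Only Atp5g2 had a comparison position, a GGACT at -147 nt that Tombo and m6Anet listed in both libraries.

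Several members are tissue-restricted forms of a subunit. Cox4i2, a form of subunit 4 known from lung, had 6 and 5 positions, and Cox6b2, known from testis, had 7 and 5. Cox7a1, the heart and muscle form, had 8 and 6. Ndufa4l2, a hypoxia-induced relative of Ndufa4, had 8 and 4, of which 4 were on both sides. Cox6a2, the heart and muscle form of Cox6a1, had 3 positions, all on the KO side, from MINES and Tombo. Cox7b2, chosen after its values were seen, likewise had 3 on the KO side alone, from Tombo and Epinano. No tissue-restricted form had a comparison position, where 15.3% of all coding genes with a listed position had one. These forms are too few for that to set them apart, and the lists do not give how many reads covered them. In bulk RNA, fewer cells of a kind and less RNA per cell cannot be told apart.

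Along the transcript, 46.6% (43.0 to 50.1) of WT-side positions in members lay within 200 nt of the stop codon, and 46.4% (42.8 to 50.1) of KO-side positions did. In these short transcripts 33.0% (30.6 to 35.6) of the 1377 RRACH positions that could be placed on a coding transcript lay in that window. The comparison positions had 64.1% (48.4 to 77.3; 25 of 39) in the window. In other coding genes the shares were 22.5% on the WT side, 21.0% on the KO side, 51.5% for comparison positions and 12.7% for RRACH positions. Of the 39 comparison positions, 24 were in the 3′ UTR, 14 in the coding sequence and 1 in the 5′ UTR, and 12 lay in the first 100 nt from the start of the stop codon and 8 in the next 100 nt.

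Listed shares also varied by exon class and by region. With all tools joined, in internal exons of members 72.4% (68.5 to 76.0) of RRACH positions were on the WT side, against 45.0% (41.2 to 48.8) in last exons and 39.7% (32.8 to 47.0) in first exons. By tool, internal exons had a higher share than last exons in WT for Nanom6A (58.7% and 37.6%) and Tombo (28.7% and 16.4%, with 19.6% in first exons). In WT this was not seen for m6Anet (8.82% and 8.87%), Epinano (8.26% and 9.02%) or ELIGOS (0.938% and 1.80%), and the intervals of MINES overlapped (3.38% and 2.41%). In KO m6Anet had 7.88% (5.88 to 10.5) in internal and 4.21% (2.93 to 6.02) in last exons, intervals that overlap slightly. With all tools joined, other coding genes had 24.4% in internal, 25.9% in last and 18.2% in first exons on the WT side. Their single-exon transcripts, a class that members lack, had 26.4%. In internal exons of 200 nt or less the member share over all tools was 75.4%, and in longer ones, with only 49 RRACH positions, 42.9% (30.0 to 56.7). Other coding genes had 25.8% and 21.2%. By tool in WT, members had 61.8% and 28.6% for Nanom6A, 29.5% and 20.4% for Tombo, and 9.50% and 2.04% for m6Anet. Epinano had 8.26% and 8.16%, and the comparison lists 2.07% and 2.04%. MINES and ELIGOS had no WT position in the longer exons. On the KO side the member shares were 67.5% in internal, 42.6% in last and 36.9% in first exons, and other coding genes had the same order with smaller differences, at 21.6%, 20.3% and 16.2%. The comparison lists instead held 4.06% (2.81 to 5.84) of RRACH positions in last exons and 2.06% (1.16 to 3.66) in internal exons of members, with overlapping intervals, against 0.988% and 0.213% in other coding genes. By region, the WT side held 74.2% (70.7 to 77.3) of the members' RRACH positions in the coding sequence and 38.9% (34.9 to 43.1) in the 3′ UTR, and the comparison lists held 2.09% (1.25 to 3.48) and 4.44% (3.0 to 6.53). The WT-side contrast was likewise seen for Nanom6A (60.7% and 32.0% in WT) and Tombo (29.4% and 13.9%), while m6Anet had 8.66% and 9.44%, Epinano 9.40% and 8.70%, and ELIGOS 0.896% and 2.04%.

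**Figure D5:**
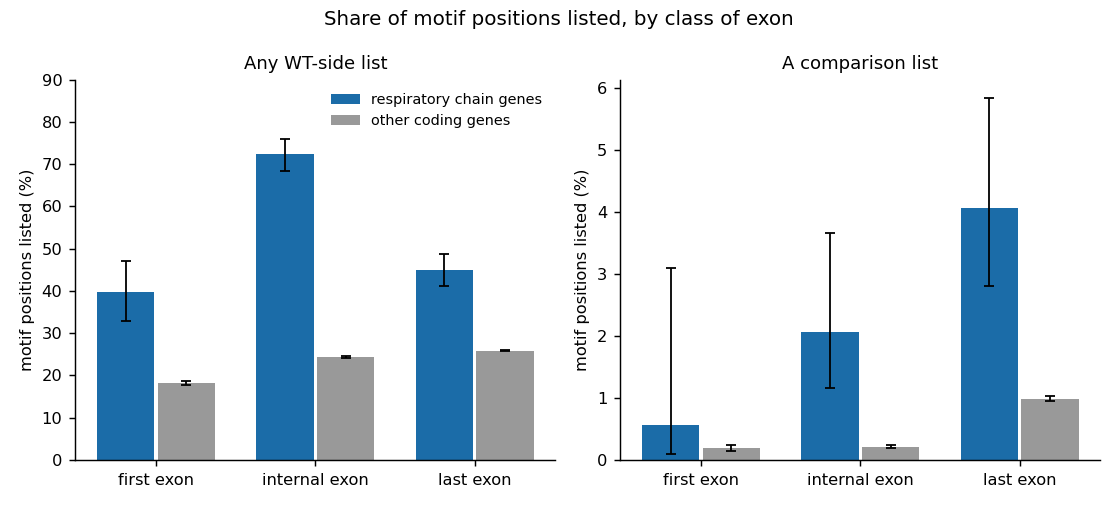
Percent of RRACH motif positions listed in first, internal and last exons, on the WT side (left) and in a comparison list (right), in respiratory chain genes and other coding genes; error bars are 95% Wilson intervals and the scales of the panels differ. All tools are joined: on the WT side internal exons of respiratory chain genes are highest, at 72.4%, which m6Anet, Epinano and ELIGOS do not show on their own in WT, and in the comparison lists last exons are, at 4.06%.

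Among sequences, GGACT made up 8.22% (6.48 to 10.4) of the WT-side positions in members, close to its 7.70% of their RRACH positions, while in other coding genes it was 12% against 7.47%. It made up 8.22% of the KO-side positions of members as well. In the comparison lists GGACT was 30.8% (18.6 to 46.4; 12 of 39) in members and 34.4% in other coding genes. AGACT and the 5-mers that start with GGAC, the 4 sequences that MINES can call, together were 71.8% (56.2 to 83.5) of comparison positions in members and 84.5% in other coding genes. Of the 118 GGACT positions in members, 53.4% were on the WT side, 50.0% on the KO side and 10.2% (5.91 to 16.9) in a comparison list. The 120 AAACC positions had 40%, 38.3% and 0, which allows a share of up to 3.10% by the upper end of the Wilson interval.

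The assembly factors of the chain, which build the complexes without staying in them, and the carrier Cycs formed a list of 48 genes, of which 46 had a WT-side position and 45 a KO-side position. They differed from the subunits in both respects above. Nanom6A listed 7.15% (5.91 to 8.63) of their RRACH positions in WT, and 60.8% (56.0 to 65.3) of their 418 WT-side positions were on the KO side, with neither interval reaching that of the subunits. The comparison lists held 18 positions in 10 of these genes, 1.30% (0.824 to 2.05) of RRACH positions, against 0.602% of RRACH positions and 15.3% of listed genes over all coding genes. Coa3, a complex IV assembly factor, had 3, and Cycs, the mobile carrier between complexes III and IV, had 2, with 15 positions on each side. The transcripts of the list had a median length of 1656 nt.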

How the data were processed

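Nanopore direct RNA libraries of WT and Mettl3 KO mESCs, 1 each, were analysed from 17 deposited position lists on GRCm38 (mm10). The authors aligned reads to a transcriptome of that build with Minimap2, ran 10 tools and, in their methods, set a score threshold per tool by its match to published m6A sites. Whether the deposited lists were made with it is not given in the sources used here. The deposited files, per the labels 7 per library plus 3 comparison lists, hold chromosome, start, strand and transcript (symbol for Nanom6A), but no counts or depth, so the depth behind a position is unknown. The study gives similar read totals for both libraries. No authors' fold changes or p-values were used.

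Here, 383918 lines were reduced to 160430 unique positions and given to a gene of a later GENCODE release by the named transcript or symbol, or by exon overlap for the 2875 Nanom6A lines whose symbol was missing there. A position was placed on the named coding transcript, and 14 member positions had no such place. Of the members' 1532 RRACH positions, 1377 had one, and the shares by stop codon, exon class and region use these. Of the members' positions, 3 also lay in exons of another coding gene on the same strand, Gm20538 or Gm49356. The 12 processed pseudogenes that carry a member's symbol had no listed position, and pseudogenes under other names were not examined. RRACH positions were counted in exons of all listed transcripts of a gene. Shares have Wilson intervals at the 95% level, whose coverage was checked on simulated independent draws. Those draws do not hold the sharing of reads between positions of 1 transcript. Python 3.11.15, NumPy 2.4.6, SciPy 1.17.1 and Matplotlib 3.10.9 were used.

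Members and lists were chosen with earlier results of these data known. Named genes were those in a comparison list, the 10 with most positions on each side, 7 tissue-restricted forms and the c-subunit genes. Named positions were the comparison positions (the 12 with most tools), the 5 with most WT-side tools and no KO list, and the 5 with most single-library tools in both. The Sdhb window is spliced, and no sequence is given for Atp5a1. The values of 1 member are counted in the totals but not reported here by name.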

Additional observations from a re-analysis of the deposited data

How the results depend on the processing

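Of 279 values recomputed under 14 alternatives, 240 stayed within the interval, or within 1.5 times the count, of the reported value, and the RRACH shares of members stayed above those of other coding genes in each that gave both. Assigning by exon overlap, matching within 5 bp, leaving out Sdha and leaving out Cox7a2l, Atp5s and Ndufa4l2 moved none. Requiring RRACH on the transcript could not move any of its 21 values, since all 817 member positions already had it. Counting lines instead of positions gave 2644 in any list, 1466 on the WT side, 1178 on the KO side and 63 in the comparison lists. Without Tombo, RRACH shares were 45.2% and 40.4% (WT and KO side) in members and 16.9% and 11.2% in other coding genes, and 26 positions had 4 or more tools. Without MINES, other coding genes had 24.1% and 19.9%. With 1 transcript per gene, members had 55.6% and 52.0%, other coding genes 24.6% and 20.5%, and complexes I and IV 49.7% and 64.6% on the WT side. With prefix assembly factors added, members had 45.0% and 41.6% on the WT and KO sides and a repeat share of 84.2%. Among genes with Tombo positions in both libraries, other coding genes had 30.3%, 24.9% and 0.786% (WT side, KO side, comparison), and 19.6% were in a comparison list. A window of 100 nt held 30.2%, 29.6% and 41.0% of WT-side, KO-side and comparison positions, and 400 nt held 72.5%, 73.5% and 82.1%. Without Nanom6A, chosen after seeing the data, members had 532 positions in any list, 476 on the WT side and 408 on the KO side, with 31.1% and 26.6% of RRACH positions, a repeat share of 73.9% and 23 positions with 4 or more tools, and other coding genes had 22.0% and 17.5%. Apart from these constructions the cause was not tested.

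No paired analysis was possible because each condition had 1 library and the labels give no replicate numbers. The lists give no depth, so neither absence from a list nor a repeat in KO can be weighed by reads, and the lists' thresholds differ between tools.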

Other observations

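Further members, chosen after their values were seen, had unequal lists. Ndufv3, an accessory subunit of the NADH-binding part of complex I that is made in a short and a long form, had 12 positions on the WT side and 3 on the KO side. Exon 3, which spans 1092 nt, held 6 of the 12, and 5 of these were in no KO list. The AGACT at -1047 nt from the stop codon, in that exon, was listed by Tombo, Epinano and xPore in WT. None of the Ndufv3 positions was in a comparison list. Ndufb3, another accessory subunit of complex I, had 9 and 4 positions.

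Cox5b, a subunit of cytochrome c oxidase, went the other way, with 10 positions on the WT side and 13 on the KO side. In its 3′ UTR the WT side listed the position at 37 nt after the start of the stop codon and none farther downstream. The KO lists held that position and also those at 135, 224, 261 and 316 nt, from Tombo and Epinano. The lists give no read depth over this 3′ UTR in either library.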
